A study of Mus musculus with 3 samples.

Results

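Il2-expressing TEa cells of the spleen were 898 of the 6556 cells kept from the wild-type spleen library, or 13.7% (95% interval 12.9 to 14.6%). A cell was kept with at least 1000 unique molecular identifiers (UMIs, each standing for 1 captured transcript molecule), at least 500 genes, at most 10% mitochondrial UMIs, at least 6 UMIs of Cd3d, Cd3e, Cd3g, Trac, Trbc1 and Trbc2 together and at most 1 UMI of Lyz2. It was called Il2-expressing with at least 1 Il2 UMI, and the other 5658 cells of the library, with no Il2 UMI, are called Il2-0 cells here. The cells were thus chosen by their own Il2 count, which is given as a description only.

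TEa cells are CD4+ T cells with a transgenic receptor for an alloantigen of BALB/c mice. Congenically marked naive TEa cells were transferred into C57BL/6 mice, which then received a BALB/c heart, and TEa cells were sorted 7 days after transplantation. The 3 groups, with 1 library each, were wild-type (WT) TEa cells from the spleen, WT TEa cells from the heart allograft and Ldha-/- TEa cells from the spleen. Ldha encodes a subunit of lactate dehydrogenase. How many recipient mice stand behind a library is not given in the sources used here. For the Ldha-/- library of 12516 barcodes no gene names were used, and it was not analysed here by gene. All comparisons below are between cells of 1 library, so there is no replicate check, no test and no p-value. Intervals are exact 95% Poisson, Clopper-Pearson binomial or conditional binomial intervals. They cover counting error only.

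Interleukin-2 is a cytokine that T cells secrete soon after their antigen receptor and costimulatory receptors are engaged, and that drives the growth of activated T cells and maintains regulatory T cells. Its gene is switched on by NFAT, AP-1 and NF-kB factors, and its transcript is short-lived, so expression comes in a brief pulse after stimulation. The receptor that binds it best contains Il2ra, Il2rb and Il2rg, and signals through JAK1, JAK3 and STAT5.

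Mouse Il2 lies on the minus strand of chromosome 3, at 37120523 to 37125959 on GRCm38. The 250 bases before its RefSeq start, at chr3:37125955-37126204 of GRCm38.p6, are shown because this is the proximal promoter on which those factors are known to act. Capitals mark GGAAA on either strand, the core that NFAT factors recognise.
Il2 promoter: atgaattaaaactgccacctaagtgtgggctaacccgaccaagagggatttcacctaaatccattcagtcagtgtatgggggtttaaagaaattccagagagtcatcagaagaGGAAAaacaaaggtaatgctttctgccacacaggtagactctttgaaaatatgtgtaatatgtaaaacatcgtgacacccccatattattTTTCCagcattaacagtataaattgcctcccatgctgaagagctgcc
The window holds 2 matches to GGAAA. At least 1 match occurs in 55.6% of the 32851 mouse promoter windows of that length, and 2 or more in 21.4%. No match to TGANTCA, a consensus for AP-1, was in these letters on either strand, against 6.75% of windows with one.

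Il2 was thinly spread over the spleen cells. The library held 1099 Il2 UMIs in kept cells, a level of 19.6 CPM (UMIs of a gene in 1000000 UMIs of the group). Of the Il2-expressing cells, 753 held exactly 1 Il2 UMI and 113 held 2. A further 22 cells held 3 Il2 UMIs and 6 held 4. Above those stood 4 cells, of which 2 held 5, 1 held 8 and 1 held 12. The cells just inside the threshold were thus 753 with 1 Il2 UMI, and those just outside it were the 5658 Il2-0 cells.

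The number of cells with a few Il2 UMIs was set beside what a single Il2 rate per UMI in every cell would give. A single rate would put at least 1 Il2 UMI in 1003 cells, at least 2 in 89.4 cells and at least 3 in 6.25 cells. The library held 898, 145 and 32 such cells, so fewer cells had any Il2 and more had several than under a single rate. The variance of Il2 UMIs over cells was 1.43 times their mean. The same ratio was 1.27 for Cd40lg, which encodes CD40 ligand, 6.68 for Ifng, 6.34 for Tnf and 265 for Ccl5. By this ratio Il2, with a mean of 0.168 UMIs per cell, was more evenly spread than Ifng and Tnf. Their means were near that of Il2, at 0.137 and 0.158. The mean of Ccl5 was 2.73, and the ratio can grow with the mean, so Ccl5 is not compared with Il2 in this way.

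**Figure D1:**
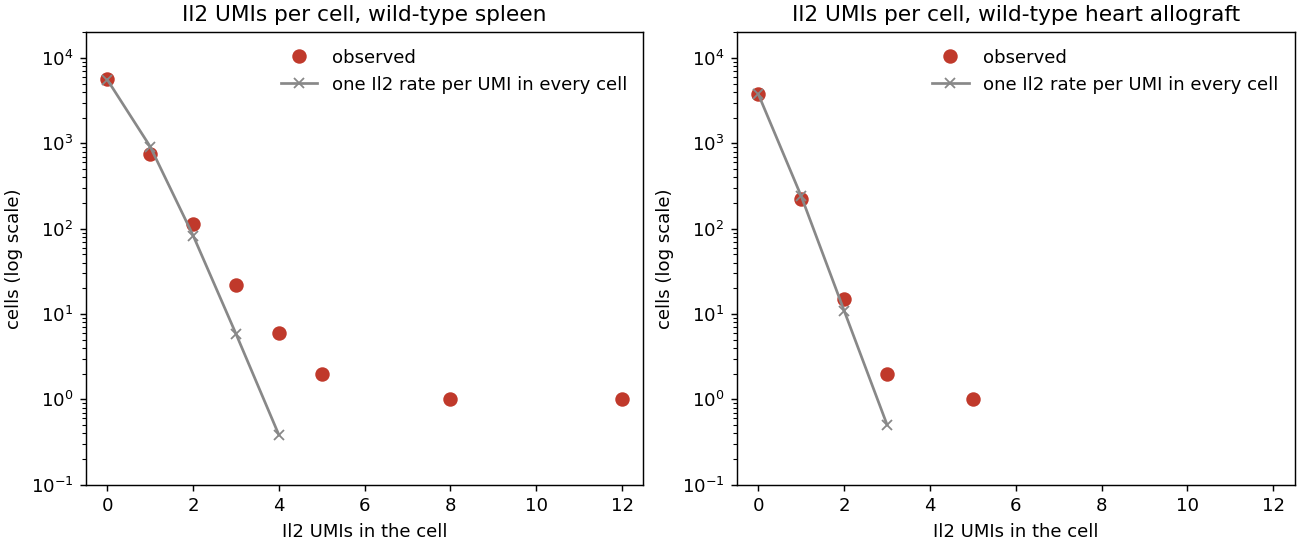
Number of cells (vertical axis, log scale) with each number of Il2 UMIs (horizontal axis) in the wild-type spleen library (left) and the wild-type heart allograft library (right). Circles are observed cells and crosses are the numbers that a single Il2 rate per UMI would give; in spleen 32 cells held 3 or more Il2 UMIs against 6.25 under a single rate.

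The share of Il2-expressing cells followed the depth of the cells. The cells were ranked by UMIs and cut into 4 equal bins. In the shallowest bin, with a median of 6371 UMIs, 8.85% were Il2-expressing (7.52 to 10.3%). The share was 12.4% and 14.8% in the next bins. It was 18.7% (16.8 to 20.6%) in the deepest bin, with a median of 10435 UMIs. The Il2 level changed less over the same bins, at 16.6, 18.7, 21.8 and 20.2 CPM. Il2-expressing cells had a median of 8432 UMIs and 2254 genes, against 7926 UMIs and 2175 genes in Il2-0 cells. After each cell had been thinned to 3000 UMIs, the medians were 1133 genes in Il2-expressing cells and 1135 in Il2-0 cells. To compare groups at equal depth, 2 Il2-0 cells of nearest total were taken for each Il2-expressing cell. These 1796 depth-matched Il2-0 cells had a median of 8432 UMIs.

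**Figure D2:**
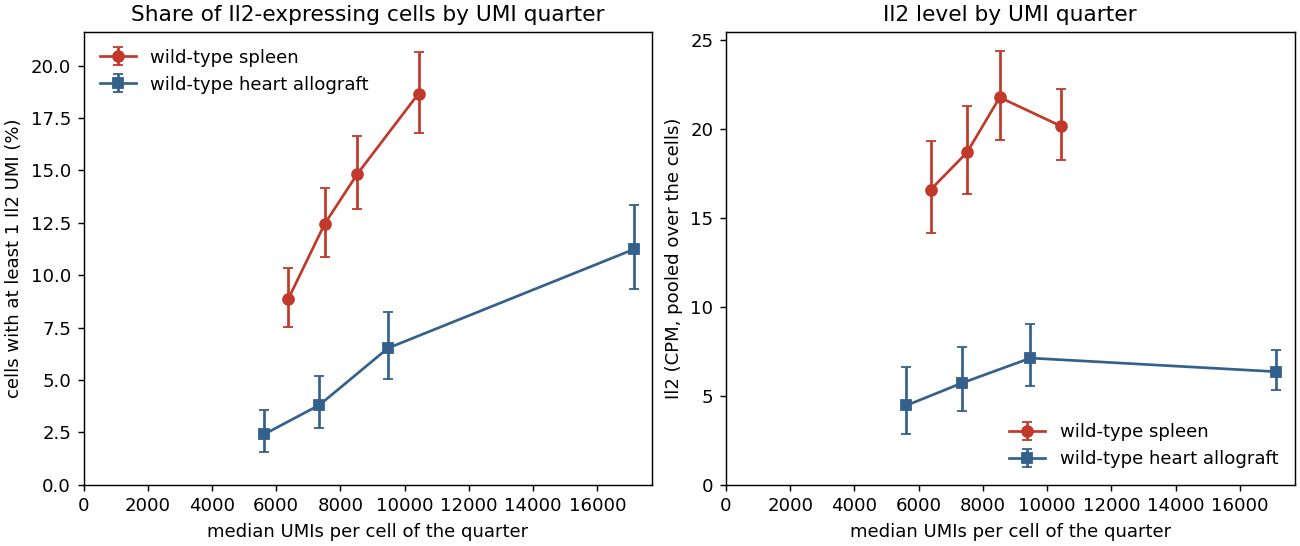
Share of cells with at least 1 Il2 UMI in percent (left) and pooled Il2 level in CPM (right) in 4 equal bins of cells ranked by total UMIs, plotted at each bin's median UMIs. Bars are exact 95% intervals; the spleen share ran between 8.85% and 18.7%, while the spleen level stayed between 16.6 and 21.8 CPM.

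Il2 was also present outside the cells. The 828721 spleen barcodes with 1 to 100 UMIs, which hold mostly RNA that is free in the suspension, had Il2 at 24.9 CPM (19.5 to 31.4, from 71 UMIs), against 19.6 CPM (18.5 to 20.8) in the kept cells. In 24 spleen barcodes that passed the size filters but held fewer than 6 T cell UMIs, 2 had an Il2 UMI (8.33%, 1.03 to 27.0%). Their median was 7673 UMIs. The interval on those 24 barcodes includes the 13.7% of the kept cells, so they are too few to set a background share. The low-UMI barcodes held 3.44 UMIs each on average, and 8.57e-05 UMIs of Il2, against 0.168 Il2 UMIs per kept cell. What share of the single Il2 UMIs came from free RNA, and its part in the results below, was not tested.

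Il2-expressing cells used the TEa receptor segments at shares whose intervals overlapped those of Il2-0 cells. The 6 T cell genes of the filter summed to 11247 CPM in Il2-expressing cells and 11149 CPM in Il2-0 cells. The filter required these genes in every kept cell of both groups, so their presence is a description only. The TEa receptor uses V beta 6, encoded by Trbv19. Trbv19 gave 78.9% of the UMIs of all Trbv segments in Il2-expressing cells (73.2 to 83.8%) and 78.9% in Il2-0 cells (76.8 to 80.9%). Segments of the Trav14 family, which encode V alpha 2, gave 58.0% (54.5 to 61.4%) of Trav UMIs in Il2-expressing cells and 58.8% (57.3 to 60.3%) in Il2-0 cells. The 145 cells with 2 or more Il2 UMIs had a Trav14 share of 49.0% (40.5 to 57.4%). It was 67.5% (61.3 to 73.2%) in 290 Il2-0 cells of the same depth, and these intervals did not overlap. However, those 290 cells were themselves above all Il2-0 cells (58.8%, 57.3 to 60.3%). The interval of the 145 cells did overlap that of all Il2-0 cells, so the gap depended on the Il2-0 cells used. Their Trbv19 share was 71.8% (55.1 to 85.0%), against 80.0% (69.2 to 88.4%) in the same depth-matched Il2-0 cells. In the 32 cells with 3 or more Il2 UMIs these shares were 9 of 16 Trbv UMIs and 13 of 33 Trav UMIs. Mitochondrial UMIs were 4.58% and ribosomal protein UMIs 34.9% of the total in Il2-expressing cells, against 4.60% and 35.3% in Il2-0 cells. Of all kept spleen cells, 6 shared a barcode with a kept heart cell and 26 with a barcode of the Ldha-/- library. Among Il2-expressing cells those numbers were 2 and 3.

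Markers of other cell types were at similar sums in both groups, apart from erythroid and dendritic cell genes. B cell markers summed to 185 CPM in Il2-expressing cells and 177 CPM in Il2-0 cells, and monocyte or macrophage markers to 211 CPM in Il2-expressing cells and 205 CPM in Il2-0 cells. Dendritic cell markers summed to 2.97 CPM in Il2-expressing cells and 7.27 CPM in Il2-0 cells, and NK cell markers to 4.99 CPM in Il2-expressing cells and 6.74 CPM in Il2-0 cells. Neutrophil markers were near 0, at 0.36 CPM in Il2-expressing cells and 0.42 CPM in Il2-0 cells. The 4 haemoglobin genes held 27 UMIs in Il2-expressing cells, with at most 1 in any cell, and 15615 UMIs in Il2-0 cells, of which 10285 lay in a single barcode.

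Across all genes, Il2-expressing and Il2-0 spleen cells were close to each other. A gene was called at a difference of 1.5-fold or more, as a description of size. Of 4737 genes with at least 20 CPM in either group, Il2 left out, 7 (0.148%) were called higher and 5 (0.106%) lower in Il2-expressing cells. Ratios are given as log2 of (CPM + 1) in Il2-expressing cells over (CPM + 1) in Il2-0 cells, which understates differences of low genes. The 7 higher genes were Ifitm1, Gm14718, Cenpf, Ube2c, Ccnb2, Cd160 and Ckb. The 5 lower genes were Lag3 and the haemoglobin genes Hbb-bs, Hba-a1, Hba-a2 and Hbb-bt. Against depth-matched Il2-0 cells, 2 genes (0.042%) were called higher and 11 (0.231%) lower. Only Ifitm1 and Lag3 met the rule for named genes in both comparisons, and the other genes named in this paragraph are named because the counts are small, after their values had been seen.

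**Figure D3:**
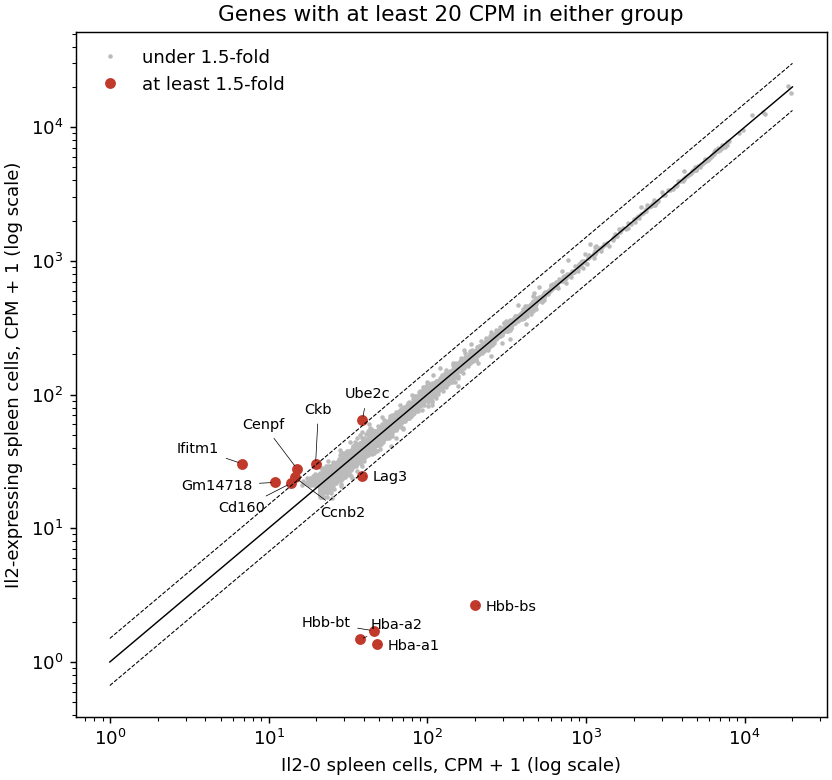
Expression of the 4737 genes with at least 20 CPM in either group, as CPM + 1 in Il2-expressing (vertical) and Il2-0 (horizontal) spleen cells, both on log scales. The solid line marks equality and the dashed lines 1.5-fold; 12 genes, drawn in red and named, lay on or beyond the dashed lines.

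Lag3, an inhibitory receptor that binds MHC class II (chromosome 6, 124904361 to 124911705, minus strand), was the 1 gene called lower in Il2-expressing cells besides the haemoglobin genes. It was at 23.6 CPM (20.5 to 27.2) in Il2-expressing cells and 37.6 CPM (35.9 to 39.4) in Il2-0 cells, a log2 ratio of -0.65 (-0.89 to -0.46), and the intervals of the levels did not overlap. Against depth-matched cells, at 41.9 CPM, the ratio was -0.80. At equal depth of 3000 UMIs, 4.46% of Il2-expressing cells had a Lag3 UMI (3.21 to 6.03%) and 8.17% of Il2-0 cells did (7.47 to 8.92%). Without thinning these shares were 12.8% in Il2-expressing cells and 16.4% in Il2-0 cells. In the heart allograft Lag3 was at 54.8 CPM in Il2-expressing cells and 77.5 CPM in Il2-0 cells, a log2 ratio of -0.49 that came to -0.28 at matched depth.

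The higher genes were less even. Ifitm1, an interferon-induced membrane protein (chromosome 7, 140967221 to 140969825, plus strand), was at 29.5 CPM in Il2-expressing cells and 5.78 CPM in Il2-0 cells, a log2 ratio of 2.17 that was 1.52 at matched depth. However, 56.5% of its UMIs in Il2-expressing cells lay in 1 cell and only 7 Il2-expressing cells had any. The 145 cells with 2 or more Il2 UMIs had none. The mitotic genes Cenpf, Ube2c and Ccnb2 had log2 ratios of 0.89, 0.73 and 0.72 against all Il2-0 cells, and of 0.26, 0.26 and 0.38 against depth-matched ones. Cd160, a receptor for HVEM, was at 20.7 CPM in Il2-expressing cells and 12.8 CPM in Il2-0 cells, and its log2 ratio of 0.65 came to 0.29 at matched depth. Ckb, the brain-type creatine kinase, was at 29.1 CPM in Il2-expressing cells and 18.8 CPM in Il2-0 cells, with log2 ratios of 0.61 and, at matched depth, 0.54.

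Gm14718, annotated as an antisense gene on the X chromosome (57200643 to 57204378, plus strand), kept its ratio at equal depth. It was at 21.02 CPM (18.0 to 24.4) in Il2-expressing cells and 9.94 CPM (9.06 to 10.9) in Il2-0 cells, a log2 ratio of 1.01 that was 0.96 against depth-matched cells. Its annotated end lies 7765 bases before the start of Cd40lg on the same strand. Cd40lg itself was at 52.1 CPM (47.4 to 57.3) in Il2-expressing cells and 47.4 CPM (45.4 to 49.4) in Il2-0 cells, a log2 ratio of 0.14 (-0.01 to 0.29). No source used here says whether the counting used strand, so reads of Gm14718 and of transcripts on the other strand may not be told apart.

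Other cytokines of activated helper T cells had no common direction. Of 23 listed cytokine genes besides Il2, 9 reached 10 CPM in either group, 5 with a ratio above 0 and 4 below. Their median log2 ratio was 0.00, against -0.01 over all 6621 genes at that floor. Of those 6621 genes, 3136 had a ratio above 0 and 3485 below. Only 13 of them were 1.5-fold higher and 8 lower, so a list with no such gene was like genes at large. Tnf, which encodes tumour necrosis factor, was at 18.3 CPM (15.5 to 21.4) in Il2-expressing cells and 18.6 CPM (17.3 to 19.8) in Il2-0 cells. Ifng, the signature Th1 cytokine, was at 20.1 CPM in Il2-expressing cells and 15.3 CPM in Il2-0 cells, but 1 cell held 22.5% of its UMIs in Il2-expressing cells, and without the top cell of each group the log2 ratio of 0.37 came to 0.10. Tnfsf14, which encodes the TNF-family ligand LIGHT, had 19.2 CPM in Il2-expressing cells and 13.6 CPM in Il2-0 cells, with a log2 ratio of 0.47 (0.24 to 0.75), and 0.50 at matched depth. Il21, the cytokine of follicular helper cells, was at 5.94 CPM (4.41 to 7.83) in Il2-expressing cells and 7.31 CPM (6.56 to 8.12) in Il2-0 cells. Il21 lies on chromosome 3 beside Il2, at 37222759 to 37232636 on the same strand.

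Most genes that receptor engagement induces within minutes to hours had ratios just below 0, and none was 1.5-fold apart. Of 35 listed immediate early genes, 21 reached 10 CPM, of which 18 had a ratio below 0 and 3 above. Over all 6621 genes at that floor, 3485 were below 0 and 3136 above. The median log2 ratio of the list was -0.16 (-0.12 at matched depth). With 2 or more Il2 UMIs required the median was 0.00, and 0.04 at matched depth. Egr1, a zinc-finger factor induced through the ERK pathway, was at 40.3 CPM (36.1 to 44.8) in Il2-expressing cells and 58.5 CPM (56.4 to 60.7) in Il2-0 cells, a log2 ratio of -0.53. At 3000 UMIs, 7.03% of Il2-expressing cells had an Egr1 UMI (5.44 to 8.91%), against 10.0% of Il2-0 cells (9.23 to 10.8%). Dusp2, a nuclear phosphatase that switches MAP kinases off, was at 195 CPM in Il2-expressing cells and 249.8 CPM in Il2-0 cells. Nr4a1, the orphan receptor used to report receptor signalling, was at 14.7 CPM in Il2-expressing cells and 17.5 CPM in Il2-0 cells. Egr2, a partner of NFAT in anergy, was at 12.6 CPM in Il2-expressing cells and 15.1 CPM in Il2-0 cells. The early activation antigen Cd69 was at 57.1 CPM in Il2-expressing cells and 58.2 CPM in Il2-0 cells. The 16 genes of proximal receptor signalling had a median log2 ratio of 0.00.

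Genes known to restrain Il2 transcription had ratios below 0, none of them 1.5-fold apart. Of the 7 listed repressors that reached 10 CPM, all had ratios below 0, as did 3485 of all 6621 genes at that floor. Their median log2 ratio was -0.10 (-0.16 at matched depth, where Tob1 and Zeb1 were no longer below 0). Ikzf2, which encodes Helios, was at 46.3 CPM (41.8 to 51.2) in Il2-expressing cells and 62.9 CPM (60.7 to 65.2) in Il2-0 cells, with a log2 ratio of -0.43. Maf, a factor of follicular helper and IL-10-producing cells, was at 115 CPM (108 to 123) in Il2-expressing cells and 155 CPM (152 to 159) in Il2-0 cells, with a log2 ratio of -0.42. At matched depth the 2 ratios were -0.54 and -0.47. Ikzf3, which encodes Aiolos, was at 34.1 CPM in Il2-expressing cells and 41.4 CPM in Il2-0 cells.

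The receptors and targets of interleukin-2 differed little. Of 16 listed genes of the IL-2 receptor and STAT5 feedback, 13 reached 10 CPM, with a median log2 ratio of -0.04. Il2ra, the alpha chain, was near absent from the spleen cells, at 0.83 CPM (0.33 to 1.71) in Il2-expressing cells and 1.18 CPM (0.89 to 1.53) in Il2-0 cells. Il2rb was at 69.3 CPM in Il2-expressing cells and 63.1 CPM in Il2-0 cells. Socs3, a feedback inhibitor of cytokine signalling, was at 40.9 CPM in Il2-expressing cells and 46.5 CPM in Il2-0 cells. Il7r, the alpha chain of the interleukin-7 receptor, was at 172 CPM (163 to 181) in Il2-expressing cells and 145 CPM (142 to 148) in Il2-0 cells, a log2 ratio of 0.25, and of 0.28 at matched depth. Foxp3, which specifies regulatory T cells, stood at 0.59 CPM (0.19 to 1.39) in Il2-expressing cells and 0.42 CPM (0.26 to 0.65) in Il2-0 cells.

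Most Th1 genes had ratios above 0, and none was 1.5-fold apart. Of 22 listed Th1 effector genes, 14 reached 10 CPM, 11 of them with a ratio above 0, against 3136 of all 6621 genes at that floor. The median log2 ratio of the list was 0.14 (0.16 at matched depth). Cxcr3, the chemokine receptor of Th1 cells (X chromosome, 101731535 to 101734269), was at 238 CPM (228 to 249) in Il2-expressing cells and 188 CPM (184 to 192) in Il2-0 cells, with a log2 ratio of 0.34 and of 0.33 at matched depth. At 3000 UMIs, 47.4% of Il2-expressing cells had a Cxcr3 UMI (44.1 to 50.8%) and 37.1% of Il2-0 cells (35.9 to 38.4%). Without thinning the shares were 73.4% in Il2-expressing cells and 60.1% in Il2-0 cells. Nkg7, a protein of cytotoxic granules, was at 214 CPM in Il2-expressing cells and 169 CPM in Il2-0 cells, and 23.0% of Il2-expressing cells had a UMI of it at 3000 UMIs, against 16.6% of Il2-0 cells. Tbx21, which encodes the Th1 factor T-bet, was at 17.3 CPM (14.6 to 20.4) in Il2-expressing cells and 12.3 CPM (11.3 to 13.3) in Il2-0 cells. Its log2 ratio of 0.47 came to 0.26 (-0.03 to 0.58) at matched depth. The chemokine Ccl5 was at 259.5 CPM in Il2-expressing cells and 330 CPM in Il2-0 cells, and its log2 ratio at matched depth was -0.56. Its share went the other way. At 3000 UMIs, 12.4% of Il2-expressing cells (10.3 to 14.7%) and 9.36% of Il2-0 cells (8.61 to 10.1%) had a UMI of it. Level and share thus disagreed for Ccl5. Part of the difference in level lay in single cells, since 1 Il2-0 cell held 8.09% of the Ccl5 UMIs of its group.

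Naive, follicular helper and inhibitory genes had medians below 0, and of these lists only the inhibitory one held called genes, Cd160 higher and Lag3 lower. Over all 6621 genes at 10 CPM, 3485 had a ratio below 0. Of 16 naive, stem-like and central memory genes, all reached 10 CPM, 11 with a ratio below 0, with a median log2 ratio of -0.13. Id3, an inhibitor of E proteins, was at 335 CPM in Il2-expressing cells and 415 CPM in Il2-0 cells, a log2 ratio of -0.31. Tcf7, the factor of stem-like T cells, was at 430 CPM in Il2-expressing cells and 443 CPM in Il2-0 cells, a log2 ratio of -0.04 (-0.10 to 0.01). Of 14 follicular helper genes at 10 CPM, 9 had a ratio below 0, with a median of -0.11. Cxcr5, the receptor that guides cells to B cell follicles, was at 31.1 CPM (27.5 to 35.1) in Il2-expressing cells and 36.5 CPM (34.8 to 38.3) in Il2-0 cells. Of 8 inhibitory receptor and exhaustion genes at 10 CPM, 7 had a ratio below 0, with a median of -0.21 that was -0.02 with 2 or more Il2 UMIs required. Pdcd1, which encodes PD-1, was at 28.2 CPM (24.7 to 32.0) in Il2-expressing cells and 37.8 CPM (36.0 to 39.5) in Il2-0 cells, with a log2 ratio of -0.41 and of -0.43 at matched depth.

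The ratio of proliferation genes depended on the Il2-0 cells used. All 22 listed genes reached 10 CPM and 20 had a ratio above 0, against 3136 of all 6621 genes at that floor. The median log2 ratio of the list was 0.25 against all Il2-0 cells, but -0.13 against depth-matched cells. Mki67, which marks cells in cycle, was at 48.5 CPM in Il2-expressing cells, against 36.6 CPM in all Il2-0 cells and 59.3 CPM in depth-matched ones. A cell was counted as cycling with at least 2 UMIs of 10 cycling markers after thinning to 3000 UMIs. By that count 5.80% of Il2-expressing cells were cycling (4.36 to 7.54%), against 3.73% of all Il2-0 cells (3.25 to 4.26%) and 5.13% of depth-matched ones (4.16 to 6.26%). The 15 glycolysis genes at 10 CPM had a median log2 ratio of 0.02. Ldha, on the plus strand of chromosome 7 (46841475 to 46855627), stood at 475 CPM (460.5 to 489) in Il2-expressing cells and 482 CPM (476 to 488) in Il2-0 cells, a log2 ratio of -0.02 (-0.07 to 0.03). The interval of the ratio stayed well under 1.5-fold in both directions within this library, for counting error alone. It does not cover spread between cells, nor any Il2 that went undetected in Il2-0 cells.

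**Figure D4:**
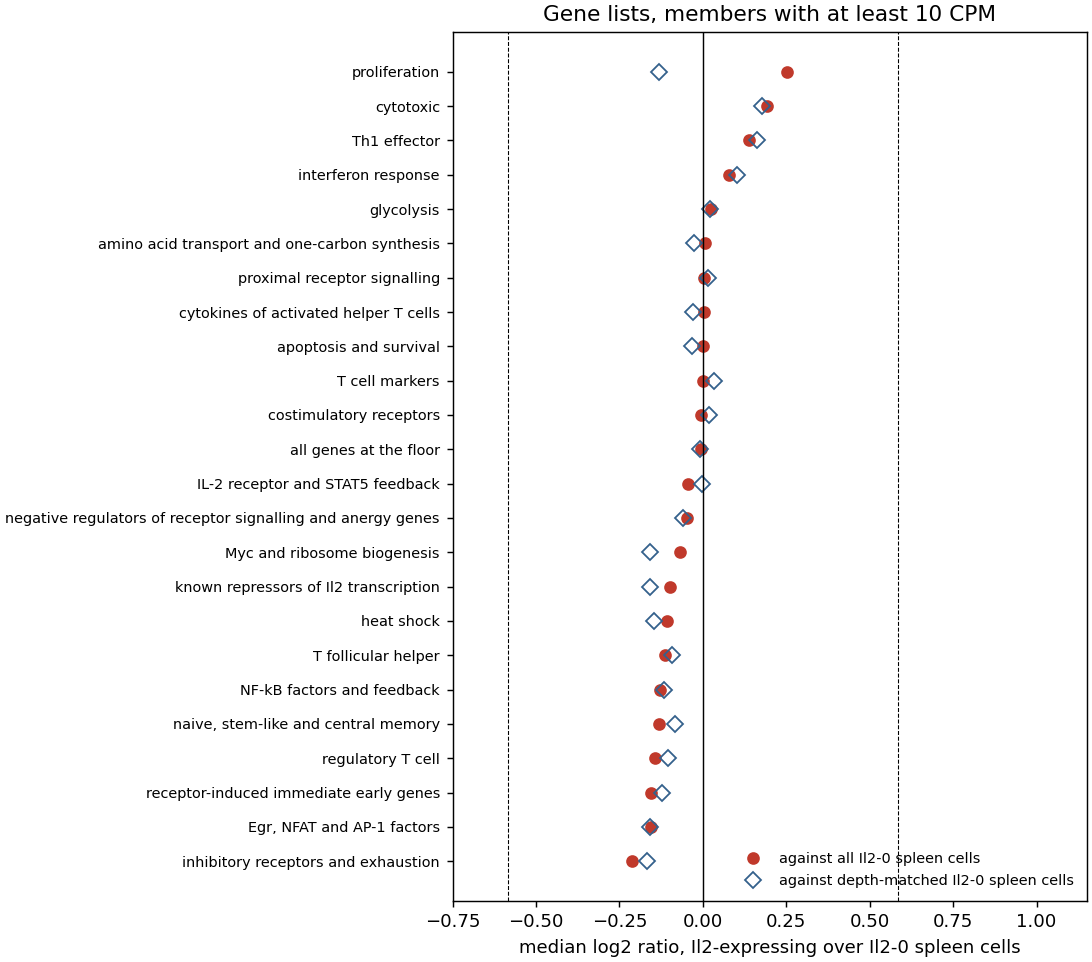
Median log2 ratio of each gene list with at least 3 members at 10 CPM or more, against all Il2-0 spleen cells (circles) and depth-matched ones (diamonds). Dashed lines mark 1.5-fold; every list median lay between them, and the proliferation list was at 0.25 against all Il2-0 cells and -0.13 at matched depth.

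Requiring 2 or more Il2 UMIs left 145 cells and a wider scatter. Of 4852 genes, 62 (1.28%) were called higher and 70 (1.44%) lower in these cells than in all Il2-0 cells. Against 290 depth-matched Il2-0 cells, 124 (2.54%) of 4885 genes were called higher and 110 (2.25%) lower. With 1459305 UMIs in these cells, counting error alone is wide for low genes. Lag3 was at 19.2 CPM (12.8 to 27.7) in these 145 cells, against 37.6 CPM in all Il2-0 cells. Maf was at 108 CPM (91.4 to 126) and Ikzf2 at 37.7 CPM (28.4 to 49.1), against 155 and 62.9 CPM in Il2-0 cells, while Cxcr3 was at 239.9 CPM, against 188 CPM. These 4 genes lay on the same side of the Il2-0 cells as with the threshold of 1 UMI.

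Receptor-induced genes were mixed in the 145 cells. Egr1 and Dusp2 stayed below the Il2-0 cells, with log2 ratios of -0.09 and -0.38, and of -0.30 and -0.28 at matched depth. Nr4a1, Egr2, Cd69 and Tnf did not keep their side. Nr4a1 was at 30.2 CPM (21.9 to 40.5) in the 145 cells and 17.5 CPM in Il2-0 cells. Its log2 ratio was 0.76, against -0.23 with the threshold of 1 UMI. Egr2 was at 24.0 CPM (16.7 to 33.4) in them and 15.1 CPM in Il2-0 cells, a ratio of 0.64, against -0.24. Cd69 was at 82.9 CPM (68.8 to 99.1) in them and 58.2 CPM in Il2-0 cells, a ratio of 0.50, against -0.03. Tnf was at 36.3 CPM (27.2 to 47.5) in them and 18.6 CPM in Il2-0 cells, from 53 UMIs in 16 cells. At matched depth the ratios were 0.46 for Nr4a1, 0.61 for Egr2, 0.36 for Cd69 and 0.48 for Tnf. These levels rested on few cells. The 113 cells with exactly 2 Il2 UMIs had Nr4a1 at 7.94 CPM (3.63 to 15.1), Egr2 at 14.1 CPM (8.07 to 22.9) and Tnf at 12.4 CPM (6.75 to 20.7).

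Mitotic genes were among those farthest above the Il2-0 cells, and are named here after their values had been seen. The ubiquitin-conjugating enzyme Ube2c, which acts in mitotic exit, was at 118 CPM (101 to 137) in the 145 cells and 38.03 CPM in Il2-0 cells, with log2 ratios of 1.61 and, at matched depth, 1.44. Its UMIs lay in 9 of the 145 cells. The mitotic cyclin Ccnb1 had ratios of 1.37 and, at matched depth, 1.49, from 12 cells, and Birc5, which encodes survivin, 1.14 and 0.68, from 8 cells. The proliferation list had a median of 0.55 against all Il2-0 cells and of 0.26 against depth-matched ones. The high Ube2c level lay in the 113 cells with exactly 2 Il2 UMIs, at 150 CPM (128 to 174). In the 32 cells with 3 or more Il2 UMIs, Ube2c was at 6.14 CPM, Birc5 at 15.4 CPM and Ccnb1 at 9.21 CPM. In Il2-0 cells Birc5 was at 37.7 CPM and Ccnb1 at 8.68 CPM. Of the 145 cells, 6.90% were counted as cycling (3.36 to 12.3%). That interval overlapped the one of the 290 depth-matched Il2-0 cells (4.48%, 2.41 to 7.54%).

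The few cells with the most Il2 differed from the rest. All 4 cells with 5 or more Il2 UMIs also held UMIs of Nr4a1, Egr2, Tnf, Cd40lg, Egr1 and Tnfsf14. Nr4a1 had 3 to 12 UMIs in each of them, Egr2 1 to 4, Tnf 2 to 11 and Cd40lg 1 to 7. Among Il2-0 cells, 7.05% had a UMI of Nr4a1, 6.63% of Egr2, 9.16% of Tnf and 30.0% of Cd40lg. The cell with 12 Il2 UMIs held 12 of Nr4a1, 4 of Egr2 and 6 of Tnf among 20036 UMIs. The cell with 8 Il2 UMIs held 6 of Nr4a1, 4 of Egr2 and 3 of Tnf among 8745 UMIs. Of the 2 cells with 5 Il2 UMIs, 1 held 38 UMIs of Ifng, 11 of Tnf and 7 of Nr4a1 and the other had no Ifng, 2 of Tnf and 3 of Nr4a1. None of the 4 held a UMI of the cycling markers or of Ccl5.

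Among the 28 cells with 3 or 4 Il2 UMIs, 1 cell with 3 was like these 4, with 15 UMIs of Tnf, 8 of Egr2, 4 of Nr4a1, 2 of Cd40lg and 20 of Cd69 among 9190 UMIs. As a class they were not. Of these 28 cells, 2 had a UMI of Nr4a1 (7.14%, 0.88 to 23.5%), 1 of Egr2 (3.57%, 0.09 to 18.3%) and 3 of Tnf (10.7%, 2.27 to 28.2%). Those shares had intervals that included the shares of Il2-0 cells. Among the 113 cells with 2 Il2 UMIs, 4.42% had Nr4a1, 8.85% Egr2 and 7.96% Tnf. Cd40lg was found in 42.9% of the cells with 3 or 4 Il2 UMIs, 38.9% of those with 2, 35.6% of those with 1 and 30.0% of Il2-0 cells. The median depth of those with 1 and 2 Il2 UMIs was 8278 and 8788 UMIs, against 7926 in Il2-0 cells, and the shares were not thinned.

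**Figure D5:**
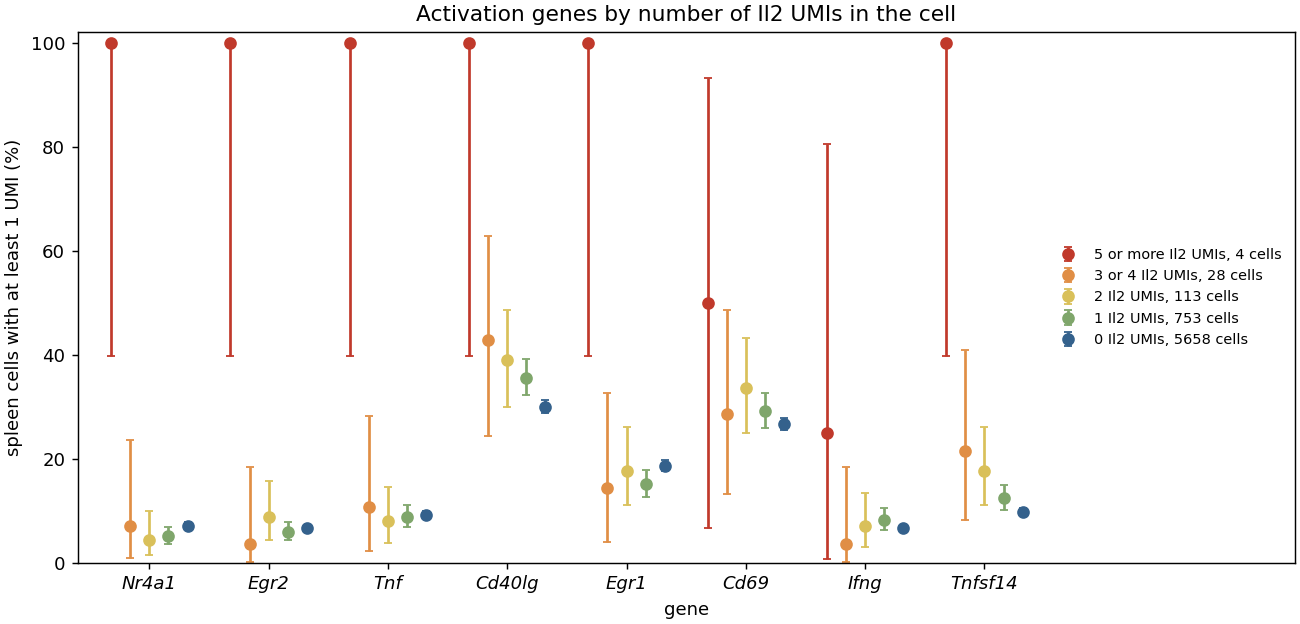
Share of spleen cells with at least 1 UMI of each gene in percent, for cells with 5 or more, 3 or 4, 2, 1 and 0 Il2 UMIs, with exact 95% binomial intervals. The 4 cells with 5 or more Il2 UMIs all held Nr4a1, Egr2, Tnf, Cd40lg, Egr1 and Tnfsf14, and the other classes lay close to the Il2-0 cells for Nr4a1, Egr2 and Tnf.

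Nr4a1, Egr2 and Tnf, chosen here because the 4 cells with the most Il2 held them, were detected together in 104 spleen cells (1.59%). Of these, 11 were Il2-expressing (10.6%, 5.40 to 18.1%), against 887 of the other 6452 cells (13.7%, 12.9 to 14.6%). The 11 include those 4 cells by the way the genes were chosen. Most cells with those 3 transcripts thus had no Il2 UMI.

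In the heart allograft Il2 was lower and rarer. There 239 of 3990 cells were Il2-expressing (5.99%, 5.27 to 6.77%), with 262 Il2 UMIs, or 6.18 CPM, and a low-UMI background of 13.1 CPM. The heart share over the 4 depth bins ran from 2.40% to 11.2%, and Il2-expressing heart cells had a median of 11291 UMIs, against 8133 in Il2-0 heart cells. Each tissue has 1 library, so the 2 cannot be told apart. Of 4644 genes there, 83 (1.79%) were called higher and 9 (0.194%) lower in Il2-expressing heart cells. At matched depth these were 18 (0.386%) and 10 (0.214%) of 4663.

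For 5 of the genes described above, named here after their values had been seen, the heart ratios at matched depth lay within 0.12 of 0. They rest on 239 Il2-expressing heart cells, so they do not show that these genes were equal there. Cxcr3 had a log2 ratio of -0.02 in heart at matched depth, Maf -0.03, Ikzf2 0.12, Pdcd1 -0.03 and Il7r -0.01, against 0.33, -0.47, -0.54, -0.43 and 0.28 in spleen. Egr1 was at -0.21 and Lag3 at -0.28 in heart, against -0.56 and -0.80 in spleen, and Tnfsf14 was at 1.28 in heart, where it had only 2.78 CPM in Il2-expressing and 0.80 CPM in Il2-0 cells. Differences between the libraries in these ratios were not tested. The heart held 1 cell with 5 Il2 UMIs, of 37904 UMIs, and it too held Nr4a1 (10 UMIs), Egr2 (4) and Tnf (1). It was 1 of 24 heart cells with all 3 of those transcripts, of which 3 were Il2-expressing.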

How the data were processed

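TEa cells of 3 libraries were profiled by droplet single-cell RNA sequencing with 3' v3 chemistry, per the labels' protocols. The authors deposited UMI counts, not normalized. Headers name Cell Ranger 3.0.2 for both wild-type matrices and Cell Ranger 7.0.1 for the Ldha-/- one. Cell Ranger 7.0.0, Seurat 4.0.0 and the build mm10 stand in the submitters' processing notes. The protocols speak of single nuclei although cells were sorted.

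Of 6794880 spleen barcodes, 6860 passed the UMI and gene minimum, 6583 the mitochondrial limit, 6559 the T cell minimum and 6556 the Lyz2 limit. Kept spleen cells held 56018262 UMIs and kept heart cells 42371660, so a gene with no count may have had up to 3, which is 0.36 CPM in Il2-expressing and 0.06 CPM in Il2-0 spleen cells. Counts were summed per group and divided by the total without Il2. Ratios used a pseudocount of 1 CPM, calls a floor of 20 CPM and list medians a floor of 10 CPM. No doublet caller was run, so doublets may remain; cells over 3 times the median UMI count were left out as an alternative. No test was made. Python 3.11.15, numpy 2.4.6, scipy 1.17.1 and pandas 2.3.3 were used, with positions from GENCODE M21 and promoters from RefSeq on GRCm38.p6. On simulated counts for Il2-expressing against Il2-0 spleen cells over 4713 genes, with counting error alone, 200 of 200 genes changed by 2-fold or 3-fold were called, and 0 unchanged ones. The changed genes all lay at 2 times the 20 CPM floor or more. Changes near 1.5-fold and spread between cells were not simulated, so calls that rest on single cells were not tried.

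Genes to be named were the 15 highest and 10 lowest at least 1.5-fold apart against both all and depth-matched Il2-0 cells, without receptor, immunoglobulin, haemoglobin, ribosomal protein, mitochondrial, sex-linked and unnamed genes, plus Ldha, Ifng, Tnf, Il21, Cd40lg, Il2ra, Tcf7, Cxcr5, Mki67 and Foxp3 and up to 5 members of each list farthest from equality. The members and the lists were chosen with earlier results of these data known.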

Additional observations from a re-analysis of the deposited data

Results flagged for a closer look

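Il2 was read in barcodes outside the comparisons, those with at most 100 UMIs. Its level there was 24.9 CPM (19.5 to 31.4) in the spleen library and 13.1 CPM (8.09 to 19.98) in the heart library. Both were above the limit that a count of 0 allows. In the kept cells Il2 was at 19.6 CPM in spleen and 6.18 CPM in heart. The T cell gene Cd3e was at 227 CPM in the low-UMI spleen barcodes and 292 CPM in kept spleen cells, and Hbb-bs at 607 CPM in those barcodes and 169.7 CPM in kept cells.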

How the results depend on the processing

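The share of Il2-expressing cells was 14.6% among cells with a Trbv19 or Trav14 UMI, 5.15% after thinning every cell to 3000 UMIs and 2.21% with at least 2 Il2 UMIs required. The 7 higher genes became 2 at matched depth, 2 with the mean of per-cell CPM, 12 with Malat1, ribosomal protein and mitochondrial counts taken out of the totals, 62 with at least 2 Il2 UMIs, 3 without cells above 3 times the library's median depth, 4 at a pseudocount of 10, 1 at a floor of 50 CPM, 2 without cycling cells, 11 with receptor UMIs required and 2 at 2-fold. The 5 lower genes became 11 at matched depth, 17 after thinning, 10 with those totals, 70 with at least 2 Il2 UMIs, 1 at 50 CPM and 12 with receptor UMIs required. The cause was not tested.

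Alternatives added after seeing the data gave 124 higher and 110 lower genes for cells with at least 2 Il2 UMIs against matched Il2-0 cells, and 1 lower gene without cells over 10 haemoglobin UMIs. The immediate early median was 0.038 with at least 2 Il2 UMIs at matched depth. The proliferation median was -0.13 at matched depth, 0.55 with at least 2 Il2 UMIs, 0.26 with both and 0.042 without cycling cells. Of 42 named genes, 6 changed sign with at least 2 Il2 UMIs and 10 with that and matched depth, among them Nr4a1, Egr2, Cd69, Tnf and Foxp3 in both, while Mki67 was at -0.29 and Birc5 at -0.09 at matched depth alone. Called genes whose sign turned were Ifitm1, Ube2c, Ckb, Hbb-bt and Hba-a2. Ifitm1 was at -2.76 with at least 2 Il2 UMIs, where it had no UMI, and at -0.75 with that and matched depth together. At matched depth alone it stayed at 1.52. Ube2c was at -0.16 without cycling cells, and Ckb at -0.25 with at least 2 Il2 UMIs at matched depth. In that last setting Hbb-bt was at 1.25 and Hba-a2 at 0.75. Without cells over 10 haemoglobin UMIs they were at 0.21 and 0.12.

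No paired analysis was possible because each group has 1 library and the comparison is within a library. The 145 cells with at least 2 Il2 UMIs held 1459305 UMIs in all, which limits what those counts show.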
